A study of Mus musculus with 45 samples.

Results

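Cdkn2a, Cdkn2b, Mtap, Dmrta1 and Elavl2, neighbours on mouse chromosome 4, were followed through all 45 libraries of mammary tumour cell lines. These 5 of the 28454 listed genes were picked by symbol, because Cdkn2a and Cdkn2b had already been seen at 0 counts in the Myc310 lineage and present in the MYAZ lines. The comparison of that lineage with the MYAZ lines is therefore given as levels for these genes, without a test. The question was how far along the chromosome the silence reached, and what the genes did in the lines that expressed them.

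All lines came from tumours of MMTV-cMYC mice, in which a viral promoter active in the mammary gland drives the Myc oncogene. MYAZ16.1e, MYAZ12.3i and MYAZ6.6g were isolated from mammary tumours, a MYAZ12.3i line labelled NDI1 was added, and Myc310 was isolated from a tumour of a mouse with several tumours. LM1, LM2 and LM3 were recovered from the lungs of mice carrying Myc310 tumours, and LM1-LM, LM2-LM and LM3-LM from lungs after LM cells had been injected, so these 7 lines (Myc310 and its 6 lung-derived descendants) trace to a single parent. Cells had 6 h of control medium, or, for LM1-LM, LM1, Myc310 and MYAZ16.1e, 6 h of medium free of cysteine and cystine, with 3 cultures for each line and condition.

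Cdkn2a encodes 2 unrelated tumour suppressors from overlapping transcripts. The product p16Ink4a blocks the cyclin D kinases CDK4 and CDK6 and so keeps RB active, and p19Arf binds MDM2 and stabilises p53. Cdkn2b encodes p15Ink4b, a close relative of p16Ink4a that responds to TGF-beta, Mtap encodes the enzyme that recycles methylthioadenosine from polyamine synthesis into the methionine salvage pathway, Dmrta1 encodes a DM-domain transcription factor, and Elavl2 encodes a neuronal RNA-binding protein. The interval is a frequent site of deletion and promoter silencing in tumours, and loss of Mtap together with its neighbours is a common form of the former.

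On build GRCm38, Mtap lies on the plus strand at chr4:89137122-89181081, followed by Cdkn2a on the minus strand at chr4:89274471-89294653 and Cdkn2b on the minus strand at chr4:89306299-89311039. A gap of 93.4 kb separates Mtap from Cdkn2a, and 11.6 kb separates Cdkn2a from Cdkn2b. Dmrta1 (plus strand, chr4:89679436-89694772) begins 368.4 kb further on, and Elavl2 (minus strand, chr4:91250763-91400785) another 1556 kb beyond Dmrta1. Mtap overlaps the pseudogene Gm12607 on the opposite strand, which had at most 2 counts in any library.

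The start sites of the silent pair and of their active neighbour are shown because the finding is a difference between them. Each window was taken from RefSeq on GRCm38.p6, runs 5′ to 3′ on the gene's strand over 300 bases, and carries GC boxes (GGGCGG, searched on both strands) in capitals. The Cdkn2a windows are at chr4:89294570-89294869 and chr4:89282143-89282442, Cdkn2b at chr4:89310983-89311282, and Mtap at chr4:89137120-89137419. By the known order of its first exons the upstream start of Cdkn2a belongs to the p19Arf transcript and the downstream start to p16Ink4a.
Cdkn2a upstream start: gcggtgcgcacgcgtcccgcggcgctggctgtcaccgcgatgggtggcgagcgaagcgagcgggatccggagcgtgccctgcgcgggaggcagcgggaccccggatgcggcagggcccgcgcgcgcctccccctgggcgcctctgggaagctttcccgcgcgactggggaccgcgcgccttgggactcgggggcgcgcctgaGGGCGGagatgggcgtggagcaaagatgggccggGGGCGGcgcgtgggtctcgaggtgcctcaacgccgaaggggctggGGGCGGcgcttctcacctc
Cdkn2a downstream start: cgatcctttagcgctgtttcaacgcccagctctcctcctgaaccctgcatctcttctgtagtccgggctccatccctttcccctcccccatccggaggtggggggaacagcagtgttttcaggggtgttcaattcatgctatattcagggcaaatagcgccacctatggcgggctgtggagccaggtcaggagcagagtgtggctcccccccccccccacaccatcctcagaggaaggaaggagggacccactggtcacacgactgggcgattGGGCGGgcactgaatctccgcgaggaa
Cdkn2b start: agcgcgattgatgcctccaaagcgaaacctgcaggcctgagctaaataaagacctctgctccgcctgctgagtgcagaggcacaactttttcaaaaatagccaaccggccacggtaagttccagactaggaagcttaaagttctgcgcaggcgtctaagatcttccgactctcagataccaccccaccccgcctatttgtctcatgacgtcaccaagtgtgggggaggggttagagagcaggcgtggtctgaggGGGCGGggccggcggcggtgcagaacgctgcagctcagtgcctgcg
Mtap start: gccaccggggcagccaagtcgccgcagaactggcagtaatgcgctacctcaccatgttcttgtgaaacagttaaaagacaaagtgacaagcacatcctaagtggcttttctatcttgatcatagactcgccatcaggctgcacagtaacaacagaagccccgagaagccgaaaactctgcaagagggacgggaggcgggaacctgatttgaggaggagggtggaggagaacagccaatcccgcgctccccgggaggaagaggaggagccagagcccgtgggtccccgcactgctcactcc

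The upstream Cdkn2a window was the outlier of the set in base composition, with 45 CpG dinucleotides, 77.0% GC and 3 GC boxes, more CpG than 98.1% of 32851 promoters. The downstream Cdkn2a window held 12 CpG and 1 GC box, Cdkn2b 18 CpG and 1 GC box, and Mtap 14 CpG and no GC box, against a median of 7 CpG over all promoters. A GC box was present in 35.7% of all promoters and CCAAT in 37.4%, and CCAAT occurred once each in the Mtap and downstream Cdkn2a windows. The E-box CACGTG (7.15% of promoters) and TATAAA (13.6%) were in none of the 4 windows.

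Depth ran from 19517859 to 29019988 counts per library, with a median of 22899900, and overlapped between the MYAZ libraries and the Myc310 lineage. Levels are given as CPM, counts per 1000000 counts of the library after TMM scaling. The luminal keratins Krt8 and Krt18 were at 99.9 CPM or more in every line and Krt19 at 3.17 CPM or more, whereas Epcam, Cdh1, Krt5 and Krt14 were under 1 CPM and Elf5 at 0 in the 10 control lines, so 3 of the 8 markers of the labelled mammary epithelium were present and 5 were under 1 CPM. Summed levels of the 8 epithelial markers were 341 to 1147 CPM in MYAZ lines and 1029 to 2359 CPM in the lineage. The 8 fibroblast markers summed to 9.13 to 95.5 and 1.87 to 216.7 CPM, carried by Col3a1 (mean 3.90 CPM in MYAZ lines and 64.1 in the lineage, up to 199.0 in a line), Pdgfra (20.6 and 7.98) and Pdgfrb (18.8 and 0.517), while Lum and Thy1 were at or near 0. The 6 leukocyte markers summed to 4.90 to 5.92 and 9.70 to 17.7 CPM, mostly from Cd68 (5.06 and 13.1 CPM), with Ptprc under 0.05 CPM. The 5 endothelial markers summed to 4.24 to 6.88 and 0.242 to 0.910 CPM, mostly from Kdr in MYAZ lines (5.10 and 0.0816 CPM), whereas Cdh5 was at 0.0235 and 0.266. The 5 alveolar markers summed to 11.8 to 28.9 and 46.2 to 67.5 CPM, mostly from Abca3 (17.7 and 57.1 CPM), with Ager at 1.39 and 0.628 and Sftpc, Sftpb and Scgb1a1 at or near 0. Of the markers tested with line sums, 1 epithelial marker was higher in the lineage and 2 lower of 5, 3 fibroblast markers were lower of 5, both leukocyte markers were higher, and the endothelial and alveolar pairs each had 1 higher and 1 lower, where 38.9% of all genes were called. Their part in the differences below was not tested.

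Cdkn2a was at 0 counts in all 30 libraries of the Myc310 lineage. In the MYAZ lines its counts were 2983, 2894 and 4139 in MYAZ16.1e, 3100, 2930 and 3269 in MYAZ12.3i, 2850, 3545 and 3326 in the NDI1 line, and 3249, 3223 and 3256 in MYAZ6.6g, in control medium. No MYAZ library came near 0 and no lineage library held a single count, in either medium. Across all genes, 38.9% of the 14644 tested with counts summed per line were called between these groups, and nothing is read from that share for genes chosen by the same contrast. The level over the 3 MYAZ lines was 136.5 CPM ± 5.63 (SD, n = 3). With a floor of 3 counts over the 21 control libraries of the lineage together (485693972 counts after TMM scaling, so 0.00618 CPM), Cdkn2a was at least 22102-fold lower there, for counting error only.

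Cdkn2b followed the same division at a lower level. Its control counts were 443, 493 and 617 in MYAZ16.1e, 458, 447 and 455 in MYAZ12.3i, 461, 539 and 551 in the NDI1 line, and 622, 569 and 637 in MYAZ6.6g. All 30 lineage libraries were at 0. The MYAZ level of 22.3 CPM ± 3.28 (SD, n = 3 lines) makes Cdkn2b at least 3614-fold lower in the lineage against the same floor. Per kb of exon, the level in MYAZ16.1e was 121.2 CPM for Cdkn2a, 15.9 CPM for Cdkn2b and 93.0 CPM for Mtap.

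**Figure D1:**
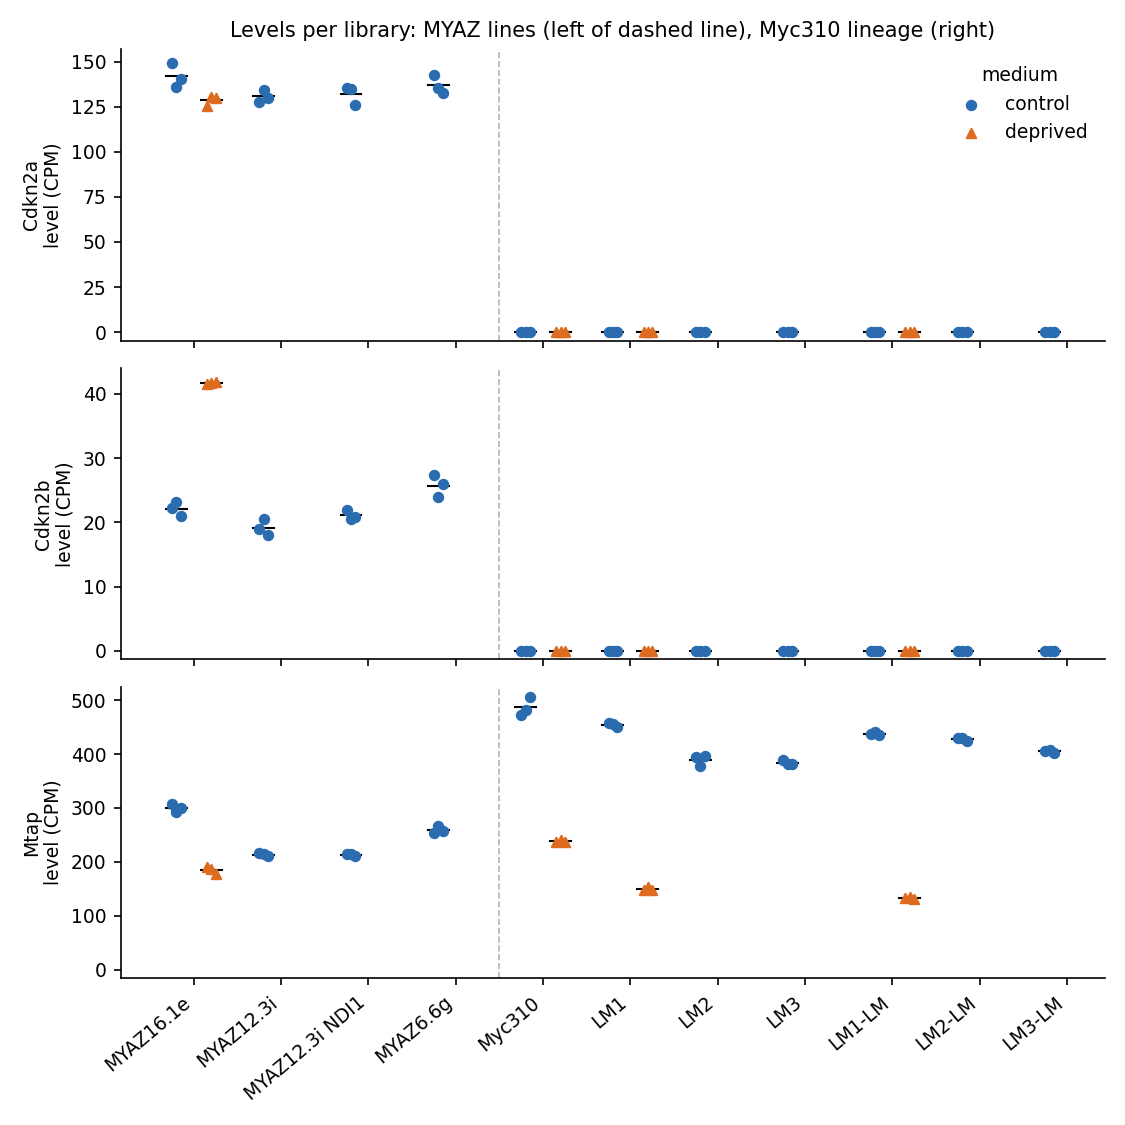
Levels of Cdkn2a, Cdkn2b and Mtap (y axes, CPM after TMM scaling) in each library, by cell line (x axis). Circles are cultures in control medium, triangles cultures after 6 h without cysteine and cystine, and short lines the means of 3 cultures. Cdkn2a and Cdkn2b sit at 0 in all 7 lines right of the dashed line, where Mtap in control medium runs from 377.1 to 505.5 CPM, above every MYAZ library.

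The silence did not include Mtap, the gene 93.4 kb away. Control counts of Mtap were 11993, 10957 and 10818 in Myc310, 8887, 10072 and 9577 in LM1, 9229, 8772 and 9103 in LM2, and 9372, 9877 and 8517 in LM3. They were 10161, 10588 and 9330 in LM1-LM, 11101, 10040 and 10366 in LM2-LM, and 9434, 8942 and 9623 in LM3-LM. Every lineage library in control medium exceeded every MYAZ one on the CPM scale, where the MYAZ control libraries ran from 210.4 to 306.9 CPM. The mean was 426.5 CPM ± 36.8 (SD, n = 7 lines) against 257.5 CPM ± 43.2 (SD, n = 3 lines), a ratio of 1.66. The 7 lines share a parent, so this is the spread of 1 lineage, and the count of lines overstates the independent evidence.

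Among the lineage lines, Mtap was highest in Myc310 at 486.9 CPM ± 16.7, then LM1 at 454.2 ± 4.44, LM1-LM at 437.5 ± 2.41, LM2-LM at 427.5 ± 2.61, LM3-LM at 405.6 ± 2.50, LM2 at 389.3 ± 10.6 and LM3 at 384.2 ± 3.44 (SD, n = 3 cultures each). LM2 and LM3 overlapped, while the 3 cultures of each other neighbour pair in this order did not. Summed per line, the 6 lung-derived lines were lower than Myc310 by a log2 difference of -0.23 (SE 0.088), which did not pass edgeR's quasi-likelihood test (adjusted p = 0.789), where 0.0663% of genes were called. In this test Myc310 is 1 sample, so the spread comes from the 6 lung-derived lines alone and the parent is assumed to vary like them. The 95% interval of the difference was -0.44 to -0.02 before adjustment. With cultures in place of line sums the same difference had an adjusted p of 0.00188, but cultures of a line are not separate lines.

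Dmrta1 could not show whether the silence reached it. Its only count in 45 libraries was 1 read in LM3, and all 15 MYAZ libraries were at 0. Elavl2 was also close to the floor in both groups, but reads did appear in the lineage. It overlaps Gm12653 on the opposite strand and the microRNA gene Mir6402, and reads of these genes cannot be told apart with certainty. Its control counts were 8, 1 and 6 in Myc310, 14, 13 and 5 in LM2, 4, 6 and 5 in LM3, 1, 1 and 0 in LM3-LM, and 0 in all cultures of LM1, LM1-LM and LM2-LM. In the MYAZ lines they were 6, 6 and 1 in MYAZ12.3i, 0, 5 and 2 in the NDI1 line, 1, 6 and 2 in MYAZ6.6g, and 0 in all 3 of MYAZ16.1e. After deprivation they were 10, 7 and 7 in Myc310, 0, 0 and 2 in LM1, 0, 1 and 0 in MYAZ16.1e and 0 in the 3 of LM1-LM. The 10 line means lay between 0 and 0.458 CPM, and lines at 0 occurred in both groups. In the same line-level test, again with 1 Myc310 sample, Elavl2 had a log2 difference of -0.87 (SE 2.12, adjusted p = 0.999 by edgeR's quasi-likelihood test), an interval too wide to bound a change.

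The count table held 73 genes within 5 Mb of Cdkn2a, of which 32 had over 3 counts in some library and 19 reached 1 CPM in the mean of the MYAZ lines or of the lineage. Those lost in the lineage, with at least 1 CPM in MYAZ lines and under 0.1 times that level in the lineage, were Cdkn2a, Cdkn2b and Bnc2, a zinc finger gene at the far edge of the window. Bnc2 had 419 counts over 10 of 15 MYAZ libraries and none in the lineage, and its level differed among the MYAZ lines from 0.0227 to 2.97 CPM. None showed the reverse pattern.

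Close to the pair, the non-coding genes gave the only further reads. These genes, other than the nearest on each side, were singled out after their values were seen. Gm12606, between Mtap and Cdkn2a, had 55 counts over 13 of 15 MYAZ libraries and 0 counts in the 30 of the lineage, and Gm12609, 107.5 kb from Cdkn2a on the Cdkn2b side, had 11 counts over 9 MYAZ libraries and 0 in the lineage. Gm12610, at 147.4 kb, had 12 counts over 5 MYAZ libraries and 1 count in the lineage, and the pseudogene Gm12608, at 167.8 kb, had 1 and 3 counts. Zfp352, at 944.4 kb, had 22 counts in MYAZ and 27 in the lineage. At 8 counts or fewer per library these genes describe the interval only coarsely, and pseudogene reads may come from parent genes.

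On the other side of Mtap the nearest gene with reads, Gm12602, was higher in the lineage, at 0.755 CPM ± 0.1997 (SD, n = 7 lines) against 0.358 ± 0.0430 (n = 3 lines). Beyond Elavl2 the nearest was the pseudogene Gm12669, at 1.39 CPM ± 0.195 in the lineage and 1.15 ± 0.262 in MYAZ lines. Farther genes on the Mtap side differed in this, since Bnc2 had no count in the lineage. Neither had Acer2 (6 counts in MYAZ libraries) nor several genes with 3 counts or fewer in MYAZ libraries, and some genes had none in either group. Those expressed in both groups included Klhl9, a substrate adaptor of a ubiquitin ligase, at 111.5 CPM ± 4.62 against 99.1 ± 8.31, and Rps6, a ribosomal protein gene, at 1128 ± 71.4 against 1061 ± 80.8. Of 17 neighbours tested at line level, 6 passed and all 6 were higher in the lineage, close to the 38.9% called over all genes. Over all genes 2736 calls were higher and 2967 lower, and Bnc2 was not among the 17 tested. The genes at 0 around Cdkn2a were thus bounded by Mtap on one side. On the Cdkn2b side a few reads reappeared at Gm12610 and Gm12608, and Zfp352 at 944.4 kb had reads in 13 of 30 lineage libraries. Zfp352 had at most 4 counts in any library. No gene on that side reached 1 CPM in either group before Gm12669, 2531 kb away, so the levels between were too low to place the end of the run of genes at 0. Messenger RNA counts do not show whether the DNA of the interval is present, and this was not tested.

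**Figure D2:**
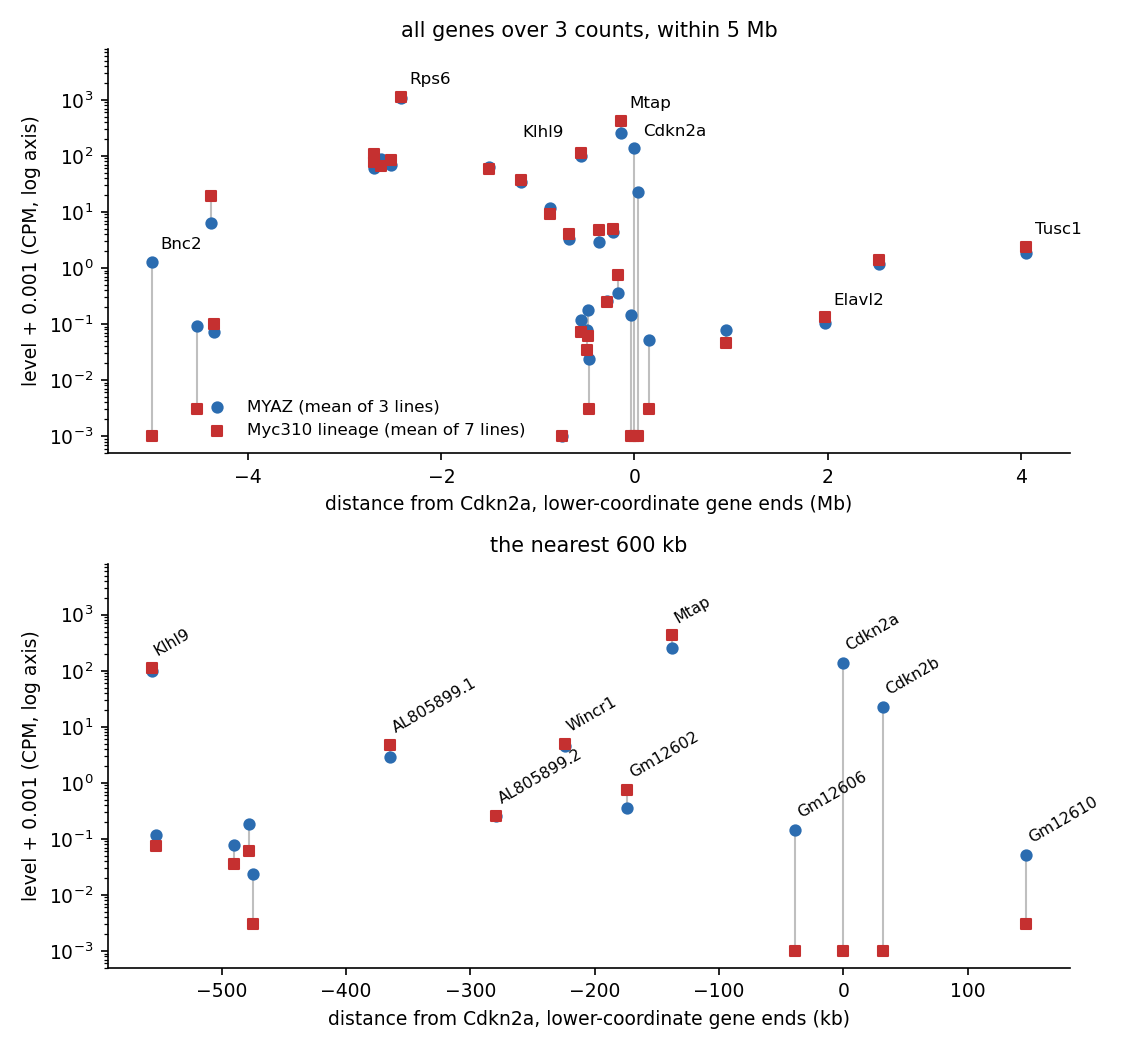
Mean level of each gene with over 3 counts near Cdkn2a (y axis, CPM plus 0.001, log axis) against its distance from Cdkn2a (x axis, Mb in the top panel and kb in the bottom panel). Circles are means of 3 MYAZ lines and squares means of 7 Myc310 lineage lines in control medium, joined by a grey line for each gene, and a square at the bottom edge is a mean of 0. Cdkn2a and Cdkn2b fall from 136.5 and 22.3 CPM to 0, while Mtap beside them is higher in the lineage.

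Counts of exactly 0 in the whole lineage were also found elsewhere in the table. Of 11106 genes with at least 1 CPM in each of the 3 MYAZ lines, 11 (0.0990%) had no count in any of the 30 lineage libraries. Cdkn2a was the most highly expressed of the 11, Gata6, a transcription factor gene, came next at 25.8 CPM, and Cdkn2b followed at 22.3 CPM. The others were Dlx2, Tlx3, Foxl2, Fgfr2, Pde5a, Pde10a, LOC118567373 and ENSMUSG00000086804, between 1.56 and 13.6 CPM in MYAZ lines. No other of them lies on chromosome 4. This list was fixed by the counts themselves and carries no test. It leaves out genes with a loss of similar depth but a few reads in the lineage, such as Sox4 (70.8 CPM in MYAZ lines and 0.0177 in the lineage), Runx3 (51.2 and 0.00222) and Cdh2 (80.8 and 0.0619).

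Across the 10 control line means the profile most like Cdkn2a over 12523 genes was that of ENSMUSG00000086804, then Sox4 and Runx3, all at a Pearson r above 0.999, with Cdkn2b the fourth, at 0.999. For Cdkn2b the closest were Runx3, Pde5a and Cdh2. Such values reflect lines that fall into an on and an off group and say little beyond that division. For Mtap they were Pola2 (r = 0.988), Fig4 (0.987) and Prps2 (0.986), and Mtap against Cdkn2a gave -0.92. The points share a common parent in 7 of 10 lines.

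Within the lines that expressed them, the members differed modestly. Cdkn2a in control medium was 149.4, 135.9 and 140.6 CPM in MYAZ16.1e, 127.8, 134.3 and 130.0 CPM in MYAZ12.3i, and 142.5, 135.3 and 132.7 CPM in MYAZ6.6g. MYAZ6.6g overlapped with both other lines, and MYAZ16.1e lay above MYAZ12.3i in all 3 cultures. MYAZ16.1e exceeded MYAZ12.3i by a log2 difference of 0.13 (SE 0.037, adjusted p = 0.00324, edgeR's quasi-likelihood test), in a comparison where 68.6% of genes were called, and without replicate 1 the adjusted p was 0.0573. The differences of MYAZ16.1e from MYAZ6.6g (0.07, adjusted p = 0.0878, edgeR) and of MYAZ12.3i from MYAZ6.6g (-0.06, adjusted p = 0.194, edgeR) did not pass, where 61.7% and 48.5% of genes did.

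Cdkn2b varied more. It was 22.2, 23.1 and 20.96 CPM in MYAZ16.1e, 18.9, 20.5 and 18.1 CPM in MYAZ12.3i, and 27.3, 23.9 and 26.0 CPM in MYAZ6.6g. MYAZ6.6g was highest, and its 3 cultures lay above all others. MYAZ12.3i was lower than MYAZ6.6g by a log2 difference of -0.42 (SE 0.068, adjusted p = 4.68e-05, edgeR's quasi-likelihood test). The differences of MYAZ16.1e from MYAZ12.3i (0.22, adjusted p = 0.00915, edgeR) and from MYAZ6.6g (-0.20, adjusted p = 0.0141, edgeR) were called, but without replicate 1 the adjusted p values were 0.0505 and 0.0978, and without replicate 3 the latter was 0.150. Mtap separated all 3 lines, at 300.0 CPM ± 7.03 in MYAZ16.1e, 258.8 ± 6.13 in MYAZ6.6g and 213.7 ± 2.92 in MYAZ12.3i (SD, n = 3 cultures), with log2 differences of 0.50 (MYAZ16.1e from MYAZ12.3i), 0.23 (from MYAZ6.6g) and -0.27 (MYAZ12.3i from MYAZ6.6g), the largest adjusted p being 1.91e-07 by edgeR. Cultures of a line may be technical repeats, so these p values measure the spread between cultures.

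The NDI1 line did not differ detectably from its parent at these genes, in a comparison where 17.4% of genes were called. Those were 2236 genes, and 898 to 1326 with a replicate left out. Cdkn2a was 135.4, 134.7 and 126.1 CPM, Cdkn2b 21.9, 20.5 and 20.9 CPM, and Mtap 215.1, 214.0 and 210.4 CPM in the NDI1 cultures. These values overlapped with those of the parental cultures for each gene. The log2 differences were 0.01 for Cdkn2a (95% interval -0.07 to 0.09), 0.13 for Cdkn2b (-0.01 to 0.28) and -0.01 for Mtap (-0.07 to 0.05), with adjusted p values of 0.884, 0.193 and 0.879 by edgeR's quasi-likelihood test.

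Deprivation of cysteine and cystine moved the neighbouring genes of MYAZ16.1e in different directions. Cdkn2b counts rose from 443, 493 and 617 to 892, 880 and 1044, or from 22.2, 23.1 and 20.96 CPM to 41.5, 41.6 and 41.9 CPM. All deprived cultures lay above all controls. The rise was 1.88-fold (log2 0.91, SE 0.083, adjusted p = 3.30e-08, edgeR's quasi-likelihood test), and 53.7% of the 13400 genes tested were called in this line.

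Cdkn2a, 11.6 kb away, did not rise with it. Its deprived counts were 2693, 2763 and 3236, at 125.3, 130.6 and 129.8 CPM, below the 3 control cultures. The log2 difference was -0.15 (SE 0.044, adjusted p = 0.0084, edgeR's quasi-likelihood test), and without replicate 1 it was -0.10 with an adjusted p of 0.124, so the call depends on replicate 1 of the groups. Gene-level counts cannot separate the p16Ink4a and p19Arf transcripts. In the 3 deprived lineage lines both genes stayed at 0 in all 9 deprived libraries.

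Mtap fell under deprivation in all 4 lines tested. Its level was 306.9, 292.8 and 300.2 CPM in control and 190.9, 187.8 and 177.2 CPM in deprived MYAZ16.1e, and 473.1, 482.1 and 505.5 CPM against 236.7, 241.4 and 237.1 CPM in Myc310. In LM1 it was 458.2, 454.9 and 449.4 CPM against 148.9, 152.8 and 148.5 CPM, and in LM1-LM 437.4, 439.9 and 435.1 CPM against 132.8, 134.8 and 130.8 CPM. Control and deprived cultures did not overlap in any line, and deprived LM1 and LM1-LM fell below deprived MYAZ16.1e although their controls lay above it.

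The fall was 1.63-fold in MYAZ16.1e (log2 -0.70, SE 0.027), 2.06-fold in Myc310 (-1.04, SE 0.027), 2.95-fold in LM1 (-1.56, SE 0.028) and 3.21-fold in LM1-LM (-1.68, SE 0.028), the largest adjusted p being 2.38e-19 by edgeR's quasi-likelihood test. In that order, 53.7%, 66.8%, 71.1% and 72.4% of all genes were called, so a call alone is common. By size, Mtap stood at percentile 3.78, 6.05, 4.58 and 4.57 of all log2 changes from the bottom. The mean response of the 3 lineage lines differed from that of MYAZ16.1e by -0.73 (SE 0.032, adjusted p = 5.12e-18, edgeR), where 55.6% of genes differed in response. Cultures were the replicates, MYAZ16.1e was the only MYAZ line deprived and the 3 lineage lines share a parent. This p value therefore measures the spread between cultures and not between lineages.

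The response of LM1 differed from that of Myc310 by -0.52, a larger fall (SE 0.038, adjusted p = 3.86e-11, edgeR's quasi-likelihood test), where 24.5% of genes differed (3278, and 2035 to 2438 with a replicate left out). LM1-LM did not differ detectably from LM1 (-0.12, SE 0.039, adjusted p = 0.187, edgeR), where 0.769% of genes did. Those were 103 genes, and 4 to 44 with a replicate left out. These contrasts between pairs of lineage lines were added after the values had been seen.

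**Figure D3:**
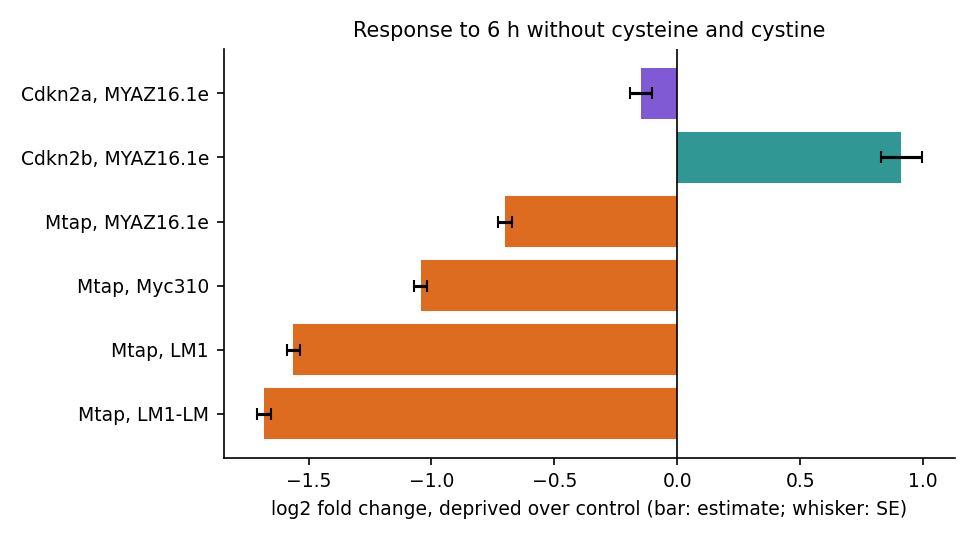
Log2 fold change of Cdkn2a, Cdkn2b and Mtap after 6 h without cysteine and cystine (x axis, deprived over control), by gene and line (y axis). Bars are edgeR estimates from 3 deprived and 3 control cultures and whiskers are 1 standard error. Cdkn2b rises by 0.91 in MYAZ16.1e, and Mtap falls from -0.70 in MYAZ16.1e to -1.68 in LM1-LM.

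Neighbours of Mtap did not move as a block. Of 17 neighbours tested, 6 were called for MYAZ16.1e, 8 for Myc310, 11 for LM1 and 10 for LM1-LM, with 4, 5, 6 and 6 of these higher, where 53.7%, 66.8%, 71.1% and 72.4% of all genes were called. Wincr1, a long non-coding gene just beyond Gm12602, rose in the 3 lineage lines by 1.66, 1.82 and 1.81 on the log2 scale and did not pass in MYAZ16.1e (0.19, adjusted p = 0.115, edgeR). Its mean response over the 3 lineage lines differed from that of MYAZ16.1e by 1.58 (SE 0.117, adjusted p = 9.72e-13, edgeR). The replicates were again cultures, with MYAZ16.1e the only MYAZ line deprived. Klhl9, next along among the protein-coding genes with over 10 counts, fell by 0.26 to 0.39 in all 4 lines. Plin2, a lipid droplet coat gene beyond Rps6 on the Mtap side, rose by 0.57 in MYAZ16.1e and by 1.61, 2.02 and 2.19 in the lineage lines. These 3 genes were singled out after their values were seen.

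Genes on which the encoded proteins act were compared between the Myc310 lineage and MYAZ lines with line sums. Of the 22 genes of the CDK, RB and p53 axis 10 passed, 5 higher and 5 lower, with a median log2 difference of 0.08 against 0.00348 over all genes and 38.9% of genes called. Higher in the lineage were the p53 targets Cdkn1a, which encodes the kinase inhibitor p21, at 134.1 CPM ± 41.3 against 23.4 ± 2.76, and Mdm2, which encodes the p53 ubiquitin ligase, at 154.9 ± 25.0 against 64.4 ± 5.64. Ccne2, which encodes cyclin E2, was higher at 104.1 ± 5.30 against 68.8 ± 12.5 CPM (SD, n = 7 and 3 lines).

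Lower were Cdk6, a kinase held by p16Ink4a and p15Ink4b, at 165.5 CPM ± 20.2 against 232.9 ± 22.8, and Cdkn1c, which encodes the inhibitor p57, at 0.0161 ± 0.0285 against 3.92 ± 2.83. The other fallers were Cdkn2c and Cdkn1b, which encode the inhibitors p18 and p27, and the RB relative Rbl1. Cdk4 (338.9 against 367.9 CPM, adjusted p = 0.0696, edgeR) and Trp53 (239.1 against 278.5 CPM, adjusted p = 0.0517, edgeR) did not pass the quasi-likelihood test.

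Of 15 genes known to regulate the interval 14 were tested and 5 passed, 2 higher and 3 lower, with a median of -0.15, a share near the 38.9% of all genes called. Twist1, a basic helix-loop-helix factor, was higher at 97.6 CPM ± 12.8 against 23.6 ± 3.88, and Bmi1, a Polycomb subunit, was the other. Tbx3, a T-box repressor of the p19Arf start, was at 7.82 ± 0.973 CPM in MYAZ lines and at 0.0249 ± 0.0534 in the lineage. Phc1, a Polycomb subunit (24.4 ± 4.86 against 38.1 ± 2.55 CPM), and Id1 were also lower, whereas the other Polycomb genes tested (Cbx7, Ezh2, Suz12, Eed, Rnf2 and Cbx8) did not pass.

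Of the 12 genes of methionine salvage, polyamine synthesis and the PRMT5 complex, which act next to Mtap in metabolism, 5 passed, 4 higher and 1 lower, with a median of 0.16, again a share near the 38.9% of all genes. Sms (170.1 CPM ± 8.61 against 109.7 ± 21.4) and Srm (369.0 ± 40.4 against 276.9 ± 33.0), which encode the polyamine synthases that release methylthioadenosine, were higher, as were Odc1 and Prmt5 (223.0 ± 17.7 against 184.4 CPM). Apip, which encodes the dehydratase of the salvage pathway, was lower at 9.18 ± 0.768 against 17.8 ± 3.46.

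**Figure D4:**
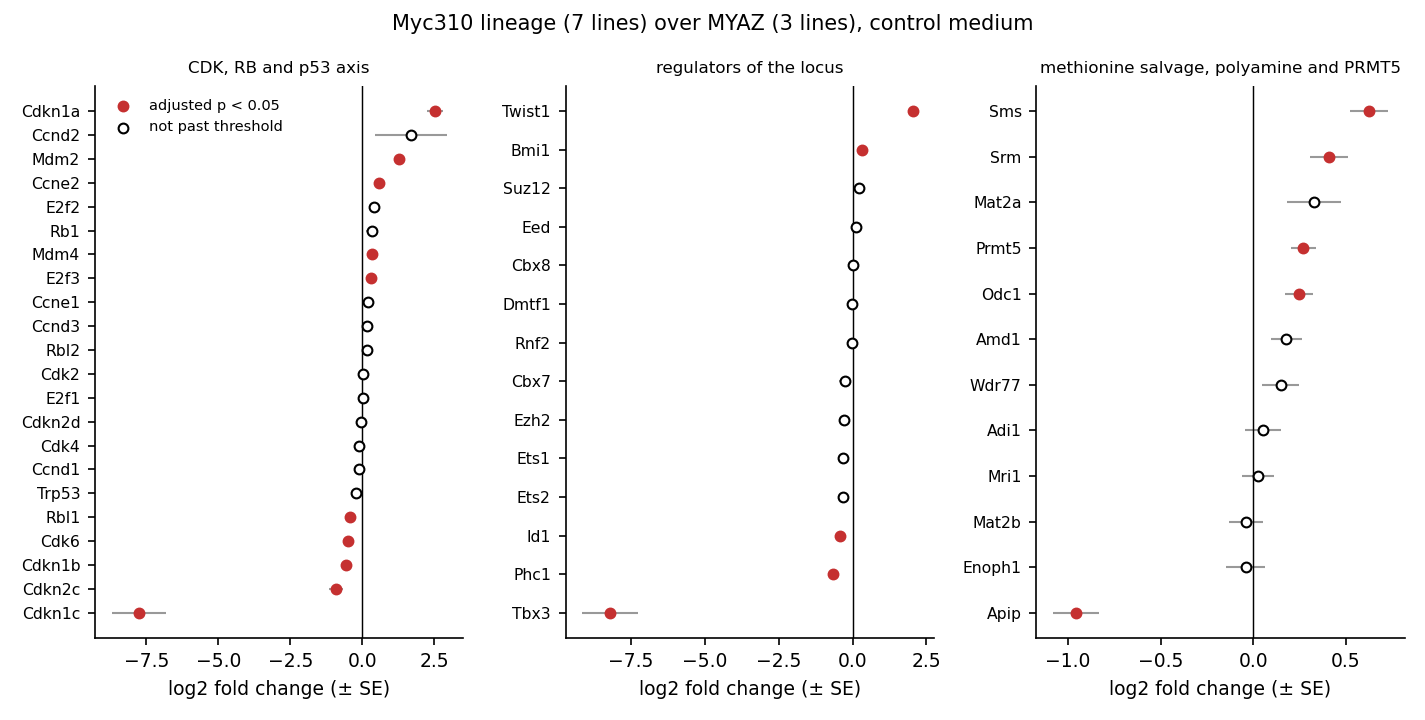
Log2 fold change of each gene on 3 lists (x axes, Myc310 lineage over MYAZ in control medium, with a scale of its own in each panel), with 1 standard error, by gene (y axes). Estimates are from counts summed over 3 cultures for each of 7 and 3 lines, and filled points passed an adjusted p of 0.05. Cdkn1a, Mdm2 and Twist1 lie at the upper end, and Cdkn1c, Tbx3 and Apip at the lower end of their lists.

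Under deprivation more genes of the salvage and polyamine list were called lower than higher. Of the 12, MYAZ16.1e had 9 called (2 higher and 7 lower), Myc310 12 (3 and 9), LM1 11 (2 and 9) and LM1-LM 12 (2 and 10), with median log2 changes of -0.24, -0.40, -0.42 and -0.30, while the median over all genes was within 0.02 of 0 and 53.7%, 66.8%, 71.1% and 72.4% of all genes were called. Over all genes, 3635 of 7195 calls were lower in MYAZ16.1e, 4545 of 8946 in Myc310, 4730 of 9524 in LM1 and 4804 of 9699 in LM1-LM. In this order of lines Srm fell by 0.50, 0.74, 0.85 and 0.94 on the log2 scale, and Enoph1, which encodes a salvage enzyme, by 0.59, 0.64, 0.80 and 0.75. Apip rose by 0.25, 1.16, 1.12 and 1.16 instead, and Mat2a, which encodes the enzyme that makes S-adenosylmethionine, fell by 0.46, 0.79, 0.99 and 1.02.

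On the CDK, RB and p53 axis 17, 19, 18 and 18 of 22 genes were called in the same order of lines, beside 53.7%, 66.8%, 71.1% and 72.4% of all genes. Most of these calls, 12, 11, 11 and 12, were lower, with median log2 changes of -0.18, -0.18, -0.08 and -0.21 over the list. Cdkn1a rose by 1.70, 1.23, 1.64 and 1.64 and Mdm2 by 0.78, 0.52, 0.54 and 0.58 on the log2 scale, in the 1 deprived line with Cdkn2a and in the 3 with none, while Trp53 fell by 0.35, 0.34, 0.22 and 0.23. Of the regulators, 12, 11, 12 and 12 of 14 were called against the same shares of all genes, and Ets2, which encodes an activator of the p16Ink4a start, rose by 0.89, 0.74, 1.16 and 1.45.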

How the data were processed

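Poly(A) RNA of 45 cultures was sequenced with a directional kit. According to the study's methods, reads were aligned with STAR and quantified with RSEM in the nf-core pipeline, and the labels' processing notes name build GRCm38. The authors deposited whole-number counts per gene, without normalization, and the strand setting of the counting was not given in the sources used here. RSEM shares out reads that fit several genes, so counts of pseudogenes and overlapping genes are uncertain.

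Libraries were grouped by the line and treatment in their labels. Counts were analysed with edgeR 4.0.16 in R 4.3.3 (TMM, filterByExpr, quasi-likelihood test, Benjamini-Hochberg adjustment over all genes tested, threshold 0.05). Deprivation was tested in 24 libraries with 8 groups, the MYAZ lines in 9 libraries, NDI1 in 6, and lineages on counts summed per line. CPM used TMM factors over all 45 libraries (0.925 to 1.039), and floors cover counting error only. The 95% intervals of fold changes use the standard error and degrees of freedom of the test, so they include the spread between cultures or lines. Positions came from GENCODE on the same build. The count models were run on simulated counts as a check of the code, and no result here rests on that run.

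The members and lists were chosen with earlier results of these data known. Named genes were every member, the nearest gene with over 3 counts on each side, genes within 5 Mb at or above 1 CPM in one lineage and under 0.1 times that in the other, the 3 most similar profiles (log2 of CPM plus 0.5), and from each list up to 4 genes by adjusted p plus Trp53, Mdm2, Cdkn1a, Cdk4, Cdk6 and Prmt5. Other genes were named after their values were seen, as were the response contrasts between lineage lines. Alternatives were RLE scaling, other filters, DESeq2 1.42.0, a replicate block, only the groups compared, leaving out each replicate or line, and cultures in place of line sums. Replicates of a group differed by more than sampling noise in all 45 pairs.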

Additional observations from a re-analysis of the deposited data

Results flagged for a closer look

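Mtap responded differently to deprivation in different lines. The response of the Myc310 lineage minus that of MYAZ16.1e was -0.73 on the log2 scale, and the response of LM1 minus that of Myc310 was -0.52, each by an interaction contrast in edgeR. Both were past the threshold without any one replicate number. The replicates were cultures, and MYAZ16.1e was the only MYAZ line deprived.

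Dmrta1 in LM3, at 0.0129 CPM, stood apart from the other 5 lung-derived lines and from the other 6 lines of the lineage, all at 0. The value is 1 read in 1 of 3 cultures. With all other lines at 0, any single read would stand apart in this way.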

How the results depend on the processing

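Of 202 alternative values of the member tests, 194 kept their direction and their side of the threshold. The 8 that did not were the calls lost without replicate 1 or 3 that are given with the results, the Mtap difference between the lung-derived lines and Myc310, which passed with cultures in place of line sums (adjusted p = 0.00188) and with a replicate block added (adjusted p = 0.00429), and Cdkn2a in the NDI1 line, whose difference ran from -0.022 without replicate 1 to 0.038 without replicate 3. The cause was not tested. Genes called for NDI1 numbered 898 to 1326 when a replicate was left out, against 2236. Genes called between lung-derived lines and Myc310 were 10 with line sums, 0 to 7 when a line was left out (0 without LM3 or LM1-LM, 1 without LM2-LM or LM3-LM, 5 without LM1), 245 with DESeq2, 1375 with cultures and 1127 with cultures and a replicate block. The LM1 response differed from that of Myc310 in 2438, 2035 and 2168 genes without replicate 1, 2 or 3, against 3278. That of LM1-LM differed from LM1 in 218 genes with no filter and in 4 to 44 with a replicate left out, against 103. Under other scalings 53 of 72 member levels moved by less than the spread between replicates, and the rest by at most 0.11 on the log2 scale.

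Samples with the same replicate number did not deviate together (r of deviations from -0.05 to 0.06 over 24 pairs), so the numbers do not pair the samples. With the replicate block 2245 genes were called for NDI1 and 7142 for deprivation of MYAZ16.1e, and adding the block to the models over cultures changed no call on a member. Dmrta1 and the genes beside Cdkn2a with 8 counts or fewer per library were too low at this depth for a test of a difference. The 3 MYAZ lines, of which only MYAZ16.1e was deprived, and the single parent of the lineage limit every comparison between them.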
